A study of Mus musculus with 4 samples.

Results

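GFP-positive cells of 2 mouse embryonic stem cell lines were compared by RNA sequencing. In the GFP line, an integrated promoter of the Zscan4c gene drove GFP. In the fusion line, the same promoter drove GFP joined to the Zscan4c protein. Both lines were made in E14Tg2a, an established male mouse embryonic stem cell line, and were grown without serum, with the MEK inhibitor PD0325901 and the GSK3β inhibitor CHIR99021. Each line was sorted by flow cytometry into a GFP-negative fraction, which the labels call pluripotent, and a GFP-positive fraction, which they call 2C-like. The series holds 1 RNA library for each of these 4 populations, and the comparison described here uses 2 of the 4 libraries. Per the series' design text, each line is clonal, so each construct is represented by 1 clone. Clone, construct, sort gate and library therefore cannot be told apart, no replicate spread exists, and every difference below is a difference between 2 libraries with no test.

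Zscan4 proteins are zinc finger proteins with a SCAN domain, encoded by a cluster of near-identical genes. In the mouse embryo they are known as products of the 2-cell stage, when the embryonic genome is first transcribed at scale. A small share of cultured embryonic stem cells passes in and out of a related state, called 2C-like, in which the Zscan4 genes, the gene of the transcription factor Dux, endogenous retrovirus-linked transcripts and several multicopy gene families are transcribed. A Zscan4c promoter reporter is a common means of sorting such cells. In bulk RNA, more cells of a type and more RNA per cell cannot be told apart, and this applies to every level given here.

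The promoter that drives both transgenes belongs to Zscan4c, so the promoters of the Zscan4 genes in the RefSeq table (GRCm38.p6) are shown for comparison. Of the Zscan4 genes in the expression files, 4 had a promoter entry. Their upstream sequences align without gaps over 208 bases. Capitals mark bases that differ from Zscan4c, and each sequence reads 5′ to 3′ along the gene's own strand.
Zscan4c, chr7:11005511-11005718, plus strand: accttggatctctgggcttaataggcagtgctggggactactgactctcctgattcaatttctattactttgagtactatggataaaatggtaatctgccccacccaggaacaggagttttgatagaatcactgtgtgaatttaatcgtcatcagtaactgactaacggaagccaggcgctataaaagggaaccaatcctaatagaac
Zscan4f, chr7:11397704-11397911, plus strand: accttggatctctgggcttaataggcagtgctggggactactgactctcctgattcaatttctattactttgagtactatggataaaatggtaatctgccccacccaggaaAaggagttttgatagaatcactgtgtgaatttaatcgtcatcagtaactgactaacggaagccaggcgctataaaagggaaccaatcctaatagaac
Zscan4d, chr7:11166186-11166393, minus strand: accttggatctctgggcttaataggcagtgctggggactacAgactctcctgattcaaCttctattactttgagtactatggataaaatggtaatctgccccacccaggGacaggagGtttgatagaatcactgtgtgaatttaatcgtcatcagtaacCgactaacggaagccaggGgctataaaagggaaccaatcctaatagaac
Zscan4b, chr7:10905054-10905261, minus strand: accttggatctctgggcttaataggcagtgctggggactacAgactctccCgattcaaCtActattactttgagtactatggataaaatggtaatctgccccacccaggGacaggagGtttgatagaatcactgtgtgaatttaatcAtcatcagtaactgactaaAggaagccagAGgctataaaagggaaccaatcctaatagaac
Zscan4f differed from Zscan4c at 1 base (99.5% identity), Zscan4d at 6 bases (97.1%) and Zscan4b at 10 bases (95.2%).

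Expression values were TPM, a unit that corrects for transcript length and gives each transcript its share of a library. TPM of the transcripts of each gene symbol were summed, giving 24190 genes. Genes at 5 TPM or more in either GFP-positive library were compared, which left 11126 genes, 9039 of them protein-coding. The gene just inside this limit was Taf13 at 5.00027 TPM in its higher library, and the gene just outside was Ankrd13d at 4.99983 TPM. The ratio is the log2 of fusion line over GFP line after 1 TPM was added to each, so it understates the difference of genes at low levels. One library had many more zeros than the rest: in the GFP line without GFP signal, 48.4% of symbols were listed at 0, against 19.5% in the GFP-negative fusion library, 11.8% in the GFP-positive GFP library and 11.6% in the GFP-positive fusion library. A value of 0 in it is given below as listed, not as absence of the transcript. The number of reads behind each TPM value is unknown, so no counting interval is given.

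The GFP-positive libraries of both lines were alike for most genes. Members of several 2C-associated families were among the genes that differed, as were many other genes. Across the 11126 genes, the median log2 ratio was 0.05, and the 5th and 95th percentiles were -0.85 and 1.09. In the fusion line, 635 genes (5.71%) were 2-fold or more higher and 451 genes (4.05%) were 2-fold or more lower, 9.76% of genes in all. Among protein-coding genes the shares were 4.38% and 3.37%. The correlation of log2(TPM + 1) across genes was 0.888; genes of 1 library are not independent replicates. By the mean of both libraries, the share of genes 2-fold apart was 9.89% from 5 to 20 TPM, 5.26% from 20 to 100 TPM and 5.98% at 100 TPM or more. For the 598 genes with a mean under 5 TPM no share is given, since the limit admits such a gene only where its other library is lower. Unprocessed pseudogenes, which are copies of whole genes, were 2-fold higher in 41 of 85 cases (48.2%) and 2-fold lower in 5 (5.88%). Of these 41, 35 lay in the stretches of multicopy genes described below, 19 of them Obox4 pseudogenes, and outside those stretches 6 of 42 were 2-fold higher. Processed pseudogenes, copies made through RNA, were 2-fold higher in 104 of 1485 cases (7%) and 2-fold lower in 95 (6.4%).

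**Figure D1:**
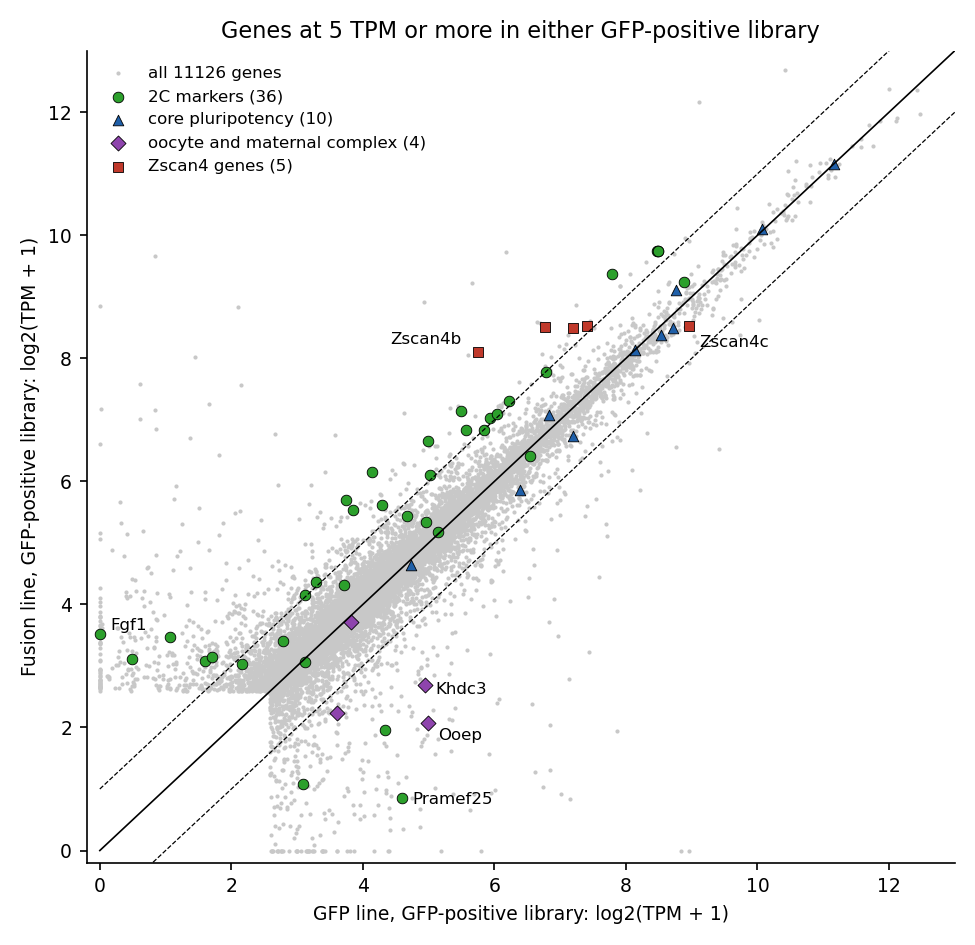
Each point is 1 of 11126 genes, with log2(TPM + 1) in the GFP-positive library of the GFP line on the x axis and of the fusion line on the y axis. The solid line marks equality and the dashed lines mark a 2-fold difference; most 2C markers lie above the upper dashed line, Zscan4c and the core pluripotency genes lie near equality, and Ooep and Khdc3 lie below.

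The 635 higher genes fell into several patterns when all 4 libraries were read. In 160 of them, both GFP-positive libraries were at least 2-fold above both GFP-negative libraries on the log2(TPM + 1) scale, so the gene was high in the sorted fraction of both lines and higher still in the fusion line. In 118, both fusion-line libraries were above both GFP-line libraries by that factor. In 105 the GFP-positive fusion library alone was high, in 92 the GFP-positive GFP library alone was low, and 160 followed none of these. Of the 451 lower genes, 15 were high in both GFP-positive libraries, 71 were low in both fusion-line libraries, 94 were high in the GFP-positive GFP library alone, 97 were low in the GFP-positive fusion library alone and 174 followed none of these. Seen from the other side, 494 genes were at least 2-fold higher in both GFP-positive libraries than in both GFP-negative ones, and 160 of these (32.4%) were 2-fold higher in the fusion line while 15 (3.04%) were 2-fold lower.

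Zscan4c is the gene whose promoter and coding sequence the fusion construct carries. With transcripts summed by listed symbol, it was the 1 Zscan4 gene that was not higher in the fusion line. Its level in the GFP line was 9.24 TPM without and 497 TPM with GFP signal, and in the fusion line 4.11 and 366 TPM, a log2 ratio of -0.44 between the GFP-positive libraries. Reads from the transgene's Zscan4c part could be counted on this gene or on near-identical Zscan4 copies. How the submitters' processing placed them is not given in the sources used here. Zscan4b had 52.7 TPM in the GFP line and 272 TPM in the fusion line among GFP-positive cells, against 0 and 1.62 TPM without GFP signal. Its log2 ratio of 2.35 was the highest of the Zscan4 genes. Zscan4d was at 108 and 362 TPM (log2 ratio 1.74), Zscan4e at 146 and 359 TPM (1.29) and Zscan4f at 170 and 369 TPM (1.11). None of these 3 exceeded 3.85 TPM in a GFP-negative library. In the GFP line Zscan4c stood far above its neighbours, whereas in the fusion line Zscan4c, Zscan4d, Zscan4e and Zscan4f lay between 359 and 369 TPM. Zscan4c made up 51.1% of the summed Zscan4 TPM in the GFP line and 21.2% in the fusion line. The Zscan4 sum was 973 TPM against 1728 TPM, a ratio of 1.78, and without Zscan4c it was 476 against 1362 TPM, a ratio of 2.86. Leaving out Zscan4c need not leave out reads of the transgene, since the copies are so alike.

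The single transcripts behind these symbols showed a sharper contrast. In GENCODE M21, the transcript ENSMUST00000091440, listed under Zscan4f, belongs to the gene Zscan4-ps2 (chr7:11514310-11519111). Its listed value in the GFP-positive libraries was 0 TPM for the GFP line and 259 TPM for the fusion line, with at most 0.104 TPM in GFP-negative cells. The main Zscan4f transcript, ENSMUST00000145237 (chr7:11397915-11402318), went the other way, at 150 against 66.5 TPM, a log2 ratio of -1.16. The short Zscan4f transcript ENSMUST00000141491 was at 19.4 and 43.0 TPM. The higher sum of Zscan4f in the fusion line thus came from the transcript annotated as Zscan4-ps2. Under the symbol Zscan4d, ENSMUST00000165848, annotated as Zscan4-ps1 (chr7:11065139-11069691), was at 92.1 and 319 TPM, and ENSMUST00000067210 of Zscan4d itself (chr7:11161374-11166159) was at 8.19 and 41.4 TPM. These transcripts are hard to tell apart: over their aligned bases, ENSMUST00000091440 and the main Zscan4f transcript were 99.8% identical, ENSMUST00000091440 and the Zscan4c transcript ENSMUST00000131379 were 99.3% identical, and the transcripts of Zscan4b and Zscan4e were 99.7% identical. How reads were divided among such copies is uncertain, so the values of single Zscan4 transcripts and genes are uncertain too.

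**Figure D2:**
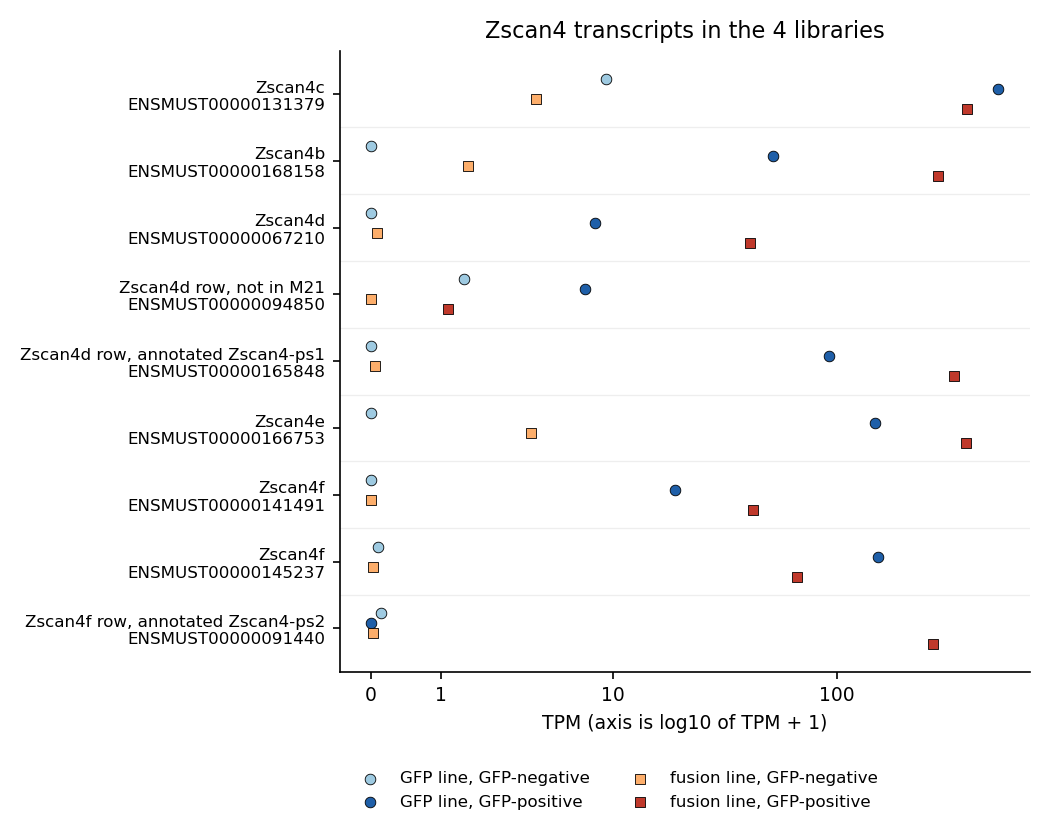
TPM of each Zscan4 transcript on the x axis, as log10 of TPM + 1, with 1 point for each of the 4 libraries. The GFP-positive fusion library lies above the GFP-positive GFP library in 6 of the 9 transcripts; the exceptions are Zscan4c (366 against 497 TPM), ENSMUST00000145237 of Zscan4f (66.5 against 150 TPM) and a transcript under the Zscan4d symbol that M21 does not hold (1.14 against 7.35 TPM).

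Among markers of the 2C-like state other than Zscan4, most were higher in the fusion line. Of 59 genes on the list, 48 had an entry and 36 passed the 5 TPM limit; 22 of these were 2-fold or more higher, against 5.71% of all genes, and 3 were 2-fold or more lower. Their median log2 ratio was 1.09, against 0.05 over all genes. A marker that passed the limit only through the fusion line had to be higher there, so the counts are no support for the direction. Many of these genes are members of one another's families and share sequence.

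Many of the higher genes lay side by side on their chromosomes. In 11 stretches of neighbouring genes, with gaps of at most 500 kb between higher genes, at least 5 genes were 2-fold higher. These 11 held 195 tested genes, of which 113 were among the 635 higher genes and 82 were not. The same search for lower genes found 2 stretches, described below. Of the 11, 9 hold multicopy families, with 100 of 125 tested genes higher and 3 lower. The mitochondrial genome is another. In the last, on chr7:44876765-45718002, which holds Med25, Scaf1 and other single-copy genes, 5 of 42 genes were higher and 3 were lower, with a median of 0.05 for the log2 ratio. The stretches and their bounds were set by the higher genes, so their counts and sums describe them and are no support for a direction. Of the 9, the highest summed TPM in the fusion line was that of chr10:104142987-104196522, where all 7 genes, among them Gm4340, Gm20765 and Gm21312, were higher. Gm4340 was at 6.87 and 355 TPM in GFP-negative and GFP-positive cells of the GFP line and at 4.61 and 855 TPM in the fusion line. The 7 genes summed to 2129 TPM in the GFP line and 5147 TPM in the fusion line, a ratio of 2.42, and their log2 ratios lay within 1.25 and 1.32. A second group on the same chromosome, chr10:100306498-100397070, had 8 of 11 genes higher, and its sum was 666 against 1428 TPM. In this group Gm9476 stood out, at 5.34 TPM in the GFP line and 108 TPM in the fusion line.

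On chr13:119765187-120318178, which holds the Tcstv genes named for 2-cell-stage variable transcripts, 13 of 17 genes were higher. Tcstv3 was at 44.0 and 141 TPM (log2 ratio 1.66) and Tcstv1 at 18.6 and 48.0 TPM (1.32). Gm20767 was at 219 and 664 TPM (1.59), while Gm21761 was at 471 and 608 TPM (0.37). The other 3 that were not 2-fold apart were the processed pseudogenes Gm20784, Gm20900 and Gm21378, which were also present in both GFP-negative libraries; Gm20900 was between 168 and 212 TPM in all 4. On chr7:14767725-15591360, 19 of 22 genes were higher, all of them Obox4 pseudogenes. The 21 tested Obox4 pseudogenes were above equality in every case, with log2 ratios between 0.80 and 2.94. Over all 28 with an entry, the sum was 196 TPM in the GFP line and 474 TPM in the fusion line, against 1.03 and 1.56 TPM in the GFP-negative libraries. The annotated Obox genes without the pseudogenes, Obox3 and Obox6, did not reach 5 TPM.

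On chr4:73401032-73905953, 9 of 10 genes were higher; Gm428 was at 13.4 and 45.5 TPM (log2 ratio 1.69) with a listed value of 0 in each GFP-negative library. Gm11757 and Gm11758 had signal in 1 library, the GFP-positive one of the fusion line, at 13.1 and 12.3 TPM. On chr5:93694994-96164171, 19 of 23 genes were higher, with BC061212 at 6.89 and 17.2 TPM. On chr3:93433197-94266784, 13 of 17 were higher. There, Tdpoz3, a member of a family with TRAF and POZ domains, was at 16.6 and 70.3 TPM (2.02) and Tdpoz4 at 7.70 and 16.7 TPM (1.03). On chr2:83955693-83993045, the 7 genes from Gm13691 to Gm13698 had nearly the same values as one another, between 5.27 and 5.40 TPM in the GFP line and between 12.4 and 12.7 TPM in the fusion line. Values this alike in neighbouring copies cannot be taken as 7 separate measurements.

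In the lower stretch on chr3:96219865-96460189, 6 of 13 genes were lower, and 5 of the 6 were small nuclear RNA genes. Of these, Rnu1b1, a U1 gene, was at 12.5 and 4.72 TPM. All 5 lay between 11.9 and 15.2 TPM in the GFP line and between 4.10 and 6.15 TPM in the fusion line. Values this alike cannot be taken as 5 separate measurements. In the GFP-negative libraries all 5 were instead higher in the fusion line, with Rnu1b1 at 0.714 TPM in the GFP line and 14.4 TPM in the fusion line. The other of the 6 was the histone gene Hist2h2ab, at 17.0 TPM in the GFP-positive GFP library and listed at 0 in the GFP-positive fusion library. In the GFP-negative libraries of the GFP line and the fusion line it was at 24.8 and 22.3 TPM. In the lower stretch on chr11:69664213-70647479, 5 of 32 genes were lower, among them Cd68 at 14.5 and 1.52 TPM, and the median log2 ratio was -0.05. Cd68 was at 17.4 TPM in each GFP-negative library.

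**Figure D3:**
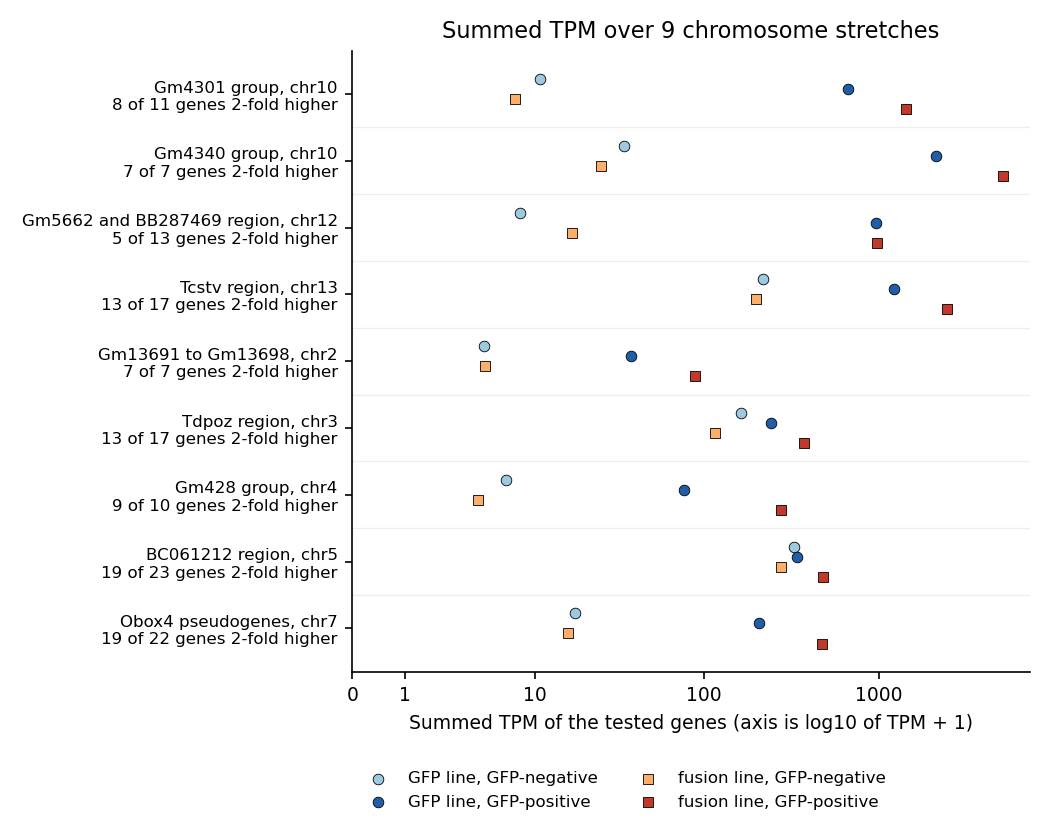
Summed TPM of the tested genes in the 9 stretches with multicopy families, as log10 of TPM + 1 on the x axis, with 1 point for each of the 4 libraries. In 8 of them the bounds were set by genes higher in the fusion line, so its place to the right there follows from the choice; the chromosome 12 region is instead bounded by its flanking genes, and its GFP-positive sums are 969 and 976 TPM. Both GFP-positive libraries lie above both GFP-negative libraries in all 9, by the least in the BC061212 region, where the GFP line has 328 TPM without and 344 TPM with GFP signal. Most of that sum is the processed pseudogene Gm5559, at 299 TPM without and 241 TPM with GFP signal. BC061212 itself was listed at 0 without and was at 6.89 TPM with GFP signal in that line.

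Not every 2C-associated gene was higher. Duxf3, the entry for the transcription factor that switches on many 2C genes, was at 7.72 TPM in the GFP line and 7.36 TPM in the fusion line (log2 ratio -0.06), against 0.134 and 0.378 TPM in GFP-negative cells. On chr12:87514316-88324026, a region of Eif1a-like genes between Slirp and Adck1, the genes parted: of 13, 5 were 2-fold higher and 3 were 2-fold lower. Gm2056 was at 60.2 and 130 TPM (1.10) and Gm6803 at 73.8 and 157 TPM (1.08). Gm5662 was nearly level at 91.8 and 83.9 TPM (-0.13), as were BB287469 at 34.5 and 35.2 TPM (0.03) and Gm2016 at 104 and 102 TPM (-0.02). Gm8332 was far lower in the fusion line, at 233 against 2.84 TPM (-5.93), and Gm2075 was at 59.6 and 1.97 TPM (-4.35). Gm5039 had the same form, at 97.6 and 1.43 TPM (-5.34). These 3 were at 3.43 TPM or less in both GFP-negative libraries. The summed TPM of the 13 genes was 969 against 976 TPM. Within the narrower bounds set by the higher genes, which leave out Gm5039, it was 815 against 861 TPM.

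Other markers also parted within families. Usp17la was at 12.4 and 50.8 TPM (log2 ratio 1.95) and Usp17lc at 24.4 and 42.2 TPM (0.77), members of a family of ubiquitin-specific proteases. Usp17lb had a ratio of 1.67 from 30.7 TPM in the GFP line, while Usp17ld was on the other side, with 2.88 TPM left in the fusion line and a ratio of -2.37. None of the 4 had signal in a GFP-negative library. Pramel7 was at 1.10 and 10.1 TPM (2.41) and Pramel6 at 2.02 and 7.45 TPM (1.48), while Pramef25 was at 23.2 and 0.814 TPM (-3.74). Among single-copy markers, Tmem92 was at 64.8 and 136 TPM (1.06), Arg2, a mitochondrial arginase, at 8.76 and 19.7 TPM (1.08) while Fgf1, a fibroblast growth factor, was listed at 0 and at 10.5 TPM. Zfp352 was at 5.93 and 9.57 TPM (0.61), and Snai1, a repressor known from epithelial-mesenchymal transition, was at 7.56 and 1.11 TPM (-2.02).

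Of 25 regulators known to favour or oppose entry into the 2C-like state, 22 passed the limit, with a median log2 ratio of 0.00. Of these, 1 (4.55%) was 2-fold higher, against 5.71% of all genes, and none was 2-fold lower, against 4.05%. Ncl, the nucleolar protein nucleolin, was the 1 past 2-fold, at 85.2 and 125 TPM in GFP-negative and GFP-positive cells of the GFP line and at 133 and 293 TPM in the fusion line (log2 ratio 1.22). Nelfa, a subunit of the negative elongation factor, was close behind, at 38.6 and 114 TPM in the GFP line and 42.5 and 224 TPM in the fusion line (0.97). The other subunits Nelfb, Nelfcd and Nelfe had ratios between 0.01 and 0.07. Dppa2 was at 31.8 and 85.6 TPM in the GFP line and 3.02 and 66.1 TPM in the fusion line, and Dppa4, its partner in activating Dux, at 38.0 and 32.8 TPM in the GFP-positive libraries. Core pluripotency genes were alike: of 10, none was 2-fold apart, against 9.76% of all genes, and the median log2 ratio was -0.05. Among the GFP-positive libraries, Pou5f1 had 1075 TPM in the GFP line and 1103 TPM in the fusion line. For Sox2 the values were 434 and 554 TPM, and for Nanog 419 and 359 TPM. Among 26 tested genes of naive pluripotency, Dppa3 (2.96 and 8.58 TPM) was the 1 that was 2-fold higher. Id3 (12.9 and 2.37 TPM) was the 1 that was 2-fold lower. These are 3.85% each way, against 5.71% and 4.05% of all genes. Otx2, a factor of the formative and primed states, was at 24.3 and 24.7 TPM in the GFP line and at 55.6 and 62.1 TPM in the fusion line, so it differed between lines in both fractions.

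Of 18 genes of the oocyte and the subcortical maternal complex, whose products the egg passes to the early embryo, 11 had no entry, 3 were under the limit and 4 passed it. Of these 4, Ooep, Khdc3 and Tle6 were 2-fold lower in the fusion line (4.05% of all genes were) and Zbed3 was nearly level, with a median log2 ratio of -1.81. Ooep was at 56.6 and 30.6 TPM in GFP-negative and GFP-positive cells of the GFP line and at 4.03 and 3.21 TPM in the fusion line. Khdc3 was at 32.7 and 29.7 TPM and at 6.81 and 5.43 TPM in the same order. Both were thus lower in the fusion line with and without GFP. Tle6, at 10.6, 11.2, 8.82 and 3.69 TPM in that order, was low only in GFP-positive cells of the fusion line. Zbed3 was at 13.1 and 12.1 TPM in the GFP-positive libraries. The median was -0.77 over the 7 with an entry when no limit was set.

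The same comparison was made between the GFP-negative libraries of the lines. One of them is the GFP-line library with 48.4% of symbols listed at 0. A difference between lines and a difference between libraries cannot be told apart there. Among 8542 genes above 0 in all 4 libraries, the GFP-negative fusion library was 2-fold higher for 1321 genes (15.5%) and 2-fold lower for 548 (6.42%). Of these 8542, 360 were 2-fold higher in the GFP-positive comparison, and 53 of the 360 were also higher in the GFP-negative one while 77 were lower. Of 315 that were lower in the GFP-positive comparison, 93 were also lower in the GFP-negative one and 43 were higher. The correlation of both log2 ratios across genes was 0.04.

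Several of the largest differences were seen in both fractions and not in the GFP-positive libraries alone. With 1 library for each population, whether they belong to the line was not tested. Lars2, the mitochondrial leucyl-tRNA synthetase, was listed at 0 in both GFP-line libraries and was at 850 and 459 TPM in GFP-negative and GFP-positive cells of the fusion line. Slc30a9, a zinc transporter family member, was at 1.12 and 1.19 TPM in the GFP line and 27.2 and 51.5 TPM in the fusion line. Tnfrsf10b, a death receptor and p53 target, was listed at 0 in both GFP-line libraries and was at 14.8 and 16.2 TPM in the fusion line. In the other direction, Tep1, a telomerase-associated protein, was at 41.9 and 54.8 TPM in the GFP line and listed at 0 in both fusion-line libraries. Nmnat2, an enzyme of NAD synthesis, was at 47.9 and 50.8 TPM in the GFP line and 0.965 and 0.894 TPM in the fusion line. Kdm4b, a histone demethylase, was at 43.8 and 41.1 TPM against 11.8 and 3.96 TPM.

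Other large differences rested on 1 of the 4 libraries. Eno1b was low in 1 library, the GFP-positive one of the GFP line, with 776, 3.31, 479 and 455 TPM in the order GFP-negative and GFP-positive of the GFP line, then of the fusion line. In the same order, Pabpc1, the cytoplasmic poly(A)-binding protein, was at 1212, 71.5, 829 and 852 TPM, and Pfn1, the actin-binding profilin, at 899, 49.6, 604 and 595 TPM. Triml1 had 42.5, 1.84, 43.6 and 46.6 TPM. Pfkl, a phosphofructokinase of glycolysis, had 361, 105, 292 and 266 TPM. Crtap, a collagen-modifying protein, was instead low in the GFP-positive fusion library alone, at 168, 114, 121 and 3.10 TPM in that order. Sparc, a secreted matrix protein, was at 249, 209, 154 and 33.7 TPM. Hnrnpu, at 207, 168, 169 and 47.5 TPM, overlaps Gm28062 on the same strand, and Gm28062 was at 0, 132, 0.128 and 284 TPM, so reads of the 2 may be divided between them. The splicing factor Srsf2 was at 498, 197, 324 and 67.6 TPM. The lincRNA Gm26825, at 497 TPM, and the pseudogene Gm12346, at 456 TPM, had these values in the GFP-positive library of the GFP line and were listed at 0 in the 3 others.

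**Figure D4:**
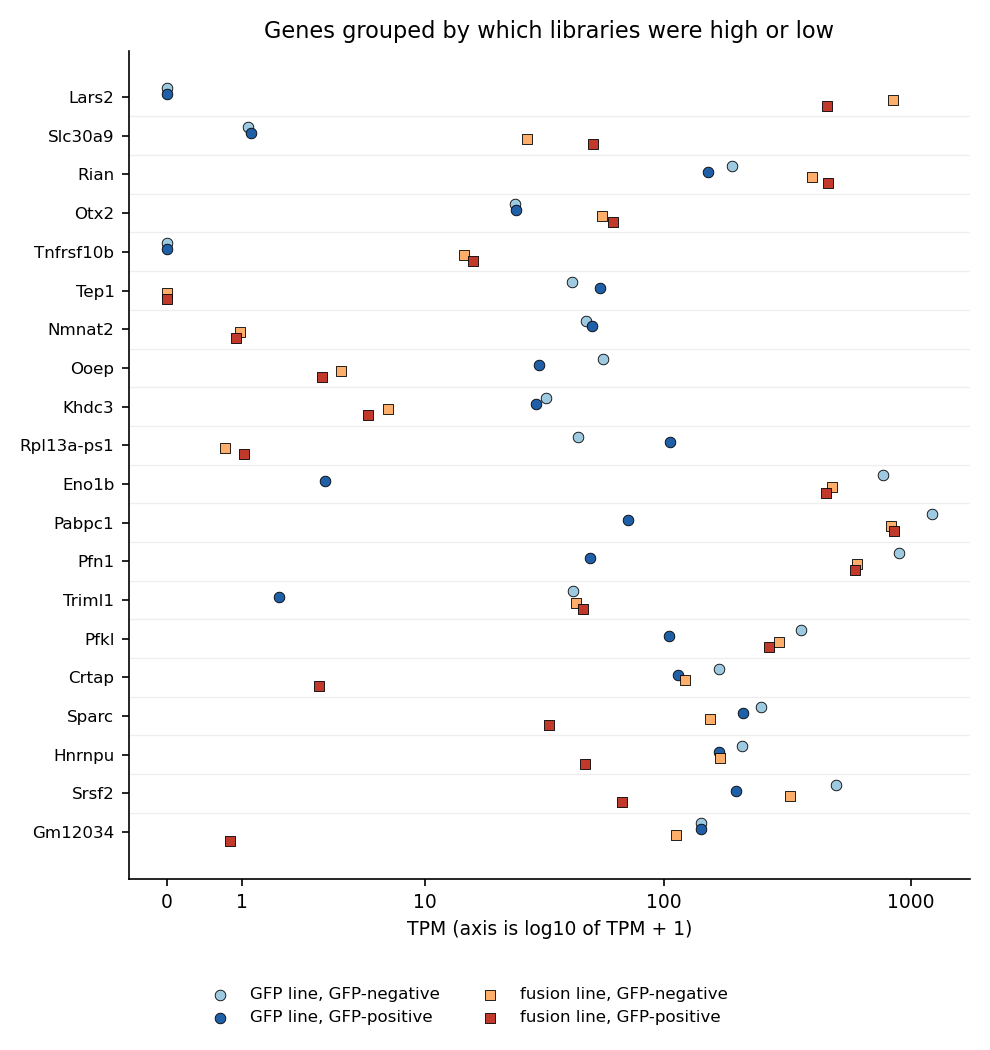
TPM of 20 genes, as log10 of TPM + 1 on the x axis, with 1 point for each of the 4 libraries. From the top, 5 genes are high in both fusion-line libraries, 5 are low in both, 5 are low only in the GFP-positive library of the GFP line and 5 only in that of the fusion line.

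Some of these differences lay between transcripts or between copies of a gene. Rps13, a ribosomal protein, was at 297, 3.41, 94.1 and 188 TPM in the same order; its transcript ENSMUST00000205490 reached 295 TPM in the GFP-negative GFP library and under 0.025 TPM in the other libraries, and ENSMUST00000170953 was listed at 0 in both GFP-line libraries and was at 91.3 and 185 TPM in the fusion line. Eno1, an enolase of glycolysis, was at 422 and 826 TPM in the GFP-positive libraries (log2 ratio 0.97), and its transcript ENSMUST00000080926 was listed at 0 in both GFP-line libraries and was at 673 and 651 TPM in the fusion line. The pseudogenes Gm6798, Gm11878 and Gm5250 were high in the GFP-negative GFP library and the GFP-positive fusion library and at 0.632 TPM or less in the other pair. Of the 10 genes with the largest ratios, 4 were processed pseudogenes, 3 were listed as miRNA or miscellaneous RNA and 3 were protein-coding; of the 10 with the smallest, 4 were processed pseudogenes and 4 were protein-coding.

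Of 15 mitochondrially encoded mRNAs and ribosomal RNAs, 12 had a ratio above 0, against 55.9% of all genes, with a median log2 ratio of 0.38, and none was 2-fold apart. mt-Nd6 was at 499 and 959 TPM (0.94) and mt-Nd5 at 821 and 1397 TPM (0.77), both subunits of respiratory complex I. The ribosomal RNAs lay on the other side, with mt-Rnr1 at 283 and 172 TPM and mt-Rnr2 at 641 and 445 TPM. Nuclear genes of oxidative phosphorylation had a median of -0.03. Of the 19 tested mitochondrial tRNA genes, 8 were 2-fold higher, against 5.71% of all genes, and 1, mt-Ts2, was 2-fold lower, against 4.05%; these genes are short, and the RNA was selected for poly(A) tails. Of 16 heat-shock genes, 13 had a ratio below 0, against 44.1% of all genes, with a median of -0.28. Most were also lower in the fusion line between the GFP-negative libraries. Hspb1 had log2 ratios of -0.82 in the GFP-positive and -1.30 in the GFP-negative libraries, and Hspa5 of -0.92 and -1.25. Only Hspa2 and Hsf1, listed at 0 in the GFP-negative GFP library, had a ratio above 0 between the GFP-negative libraries. Hspa1a, an inducible chaperone, was at 63.4 and 23.8 TPM (-1.38) and its co-chaperone family member Dnaja1 at 96.0 and 46.9 TPM (-1.02). In the GFP-negative libraries of the GFP line and the fusion line, Hspa1a was at 5.45 and 2.58 TPM, and Dnaja1 was at 27.1 TPM in the first and nearly the same in the second. Hspa1a was thus more than 2-fold above the GFP-negative level in both lines, and Dnaja1 only in the GFP line.

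Genes of the integrated stress response, in which ATF4 drives amino acid synthesis and import, had a ratio above 0 in 26 of 28 cases, against 55.9% of all genes, with a median log2 ratio of 0.28 and 1 gene past 2-fold, Vldlr at 1.41 and 6.38 TPM. Atf4 itself was at 189 and 254 TPM, Chac1 at 26.1 and 50.1 TPM and Ddit3 at 21.5 and 38.4 TPM. The GFP-negative libraries of the GFP line and the fusion line also differed. Over the 30 genes with an entry, they summed to 3160 and 3590 TPM, and the GFP-positive libraries to 3149 and 3757 TPM. Without GFP signal, Vldlr was listed at 0 and at 7.80 TPM, Chac1 was at 36.9 and 51.9 TPM and Ddit3 at 0.527 and 48.8 TPM. Genes of G2 and M phase had a ratio above 0 in 27 of 30 cases, against the same 55.9%, with a median of 0.24; Mki67, a marker of proliferation, was at 26.8 and 42.1 TPM, and Kif22 was the 1 past 2-fold, lower at 65.5 and 27.8 TPM. The G2 and M phase list summed to 1351 and 1776 TPM in the GFP-negative libraries of the GFP line and the fusion line. In the GFP-positive libraries its sums were 1963 and 2253 TPM. For S-phase genes the median was -0.05. Among 19 tested imprinted genes, 3 (15.8%) were 2-fold higher and 2 (10.5%) were 2-fold lower, against 5.71% and 4.05% of all genes. Rian, a maternally expressed noncoding RNA, was at 189 and 151 TPM in the GFP line and 400 and 464 TPM in the fusion line. Plagl1, a zinc finger factor, was at 34.1 and 94.8 TPM, and was high only in GFP-positive cells of the fusion line. Phlda2 was at 19.7 and 7.27 TPM.

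The series title links Zscan4 to DNA damage, and the lists for DNA repair and the p53 response had median log2 ratios of 0.04 for double-strand break repair and 0.17 for p53 targets, against 0.05 over all genes. Of 33 tested genes of double-strand break repair, 1 (3.03%) was higher and 4 (12.1%) were lower by 2-fold, against 5.71% and 4.05% of all genes. Rad50 was at 1.09 and 16.5 TPM. Of the 4 lower genes, Mdc1, a mediator of the DNA damage checkpoint, was at 60.4 and 20.2 TPM. In the GFP-negative libraries of the GFP line and the fusion line it was at 28.4 and 33.6 TPM. Rbbp8, Prkdc and Fancc were at 8.47, 6.32 and 5.55 TPM in the GFP-positive GFP library and listed at 0 in the GFP-positive fusion library. In the GFP-negative fusion library Rbbp8 was at 6.87 TPM and Fancc at 10.1 TPM, and Prkdc was listed at 0. All 3 were listed at 0 in the GFP-negative GFP library. Trp53 was at 197 and 218 TPM, its target Cdkn1a at 42.6 and 43.5 TPM and Mdm2, which degrades p53, at 46.2 and 52.0 TPM. Of 23 tested p53 targets, 2 (8.7%) were 2-fold higher, Tnfrsf10b and Eda2r (6.74 and 16.2 TPM). Among 11 tested genes of DNA methylation, Tet1, a 5-methylcytosine oxidase, was the 1 past 2-fold, at 91.4 and 20.4 TPM (-2.11). Of 35 tested genes of heterochromatin and silencing, Smarcad1 was the 1 past 2-fold, at 52.6 and 20.1 TPM. In the GFP-negative libraries of the GFP line and the fusion line, Tet1 was at 22.0 and 34.6 TPM and Smarcad1 at 24.7 and 20.5 TPM. Both were thus high in the GFP-positive GFP library alone. Medians were -0.01 for ribosomal proteins, 0.00 for the proteasome, 0.02 for splicing, 0.01 for telomere genes and 0.01 for housekeeping genes.

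Markers of other cell types were mostly low or without an entry. Of 19 markers of primitive endoderm, 12 had an entry and 7 passed the limit; these 7 were matrix and basement membrane genes. The defining factors Gata4 and Sox17 were at 2.13 TPM or less in both GFP-positive libraries, and Sox7 and Foxa2 were listed at 0 in both. The summed level of the list was 424 TPM in the GFP line and 223 TPM in the fusion line, and Sparc made up most of the difference. The trophectoderm list summed to 103 and 119 TPM. Of its 7 tested members, 1 was 2-fold higher, Tead4 at 5.39 and 13.5 TPM. Another 1 was 2-fold lower, the keratin Krt8 at 8.51 TPM and listed at 0. These are 14.3% each way, against 5.71% and 4.05% of all genes. The neuroectoderm list summed to 73.4 and 50.1 TPM. Of the fibroblast markers 3 passed, summing with the rest to 474 and 588 TPM; Fn1 was at 271 and 402 TPM and Vim at 190 and 178 TPM. The part of such cells in the differences above was not tested.

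**Figure D5:**
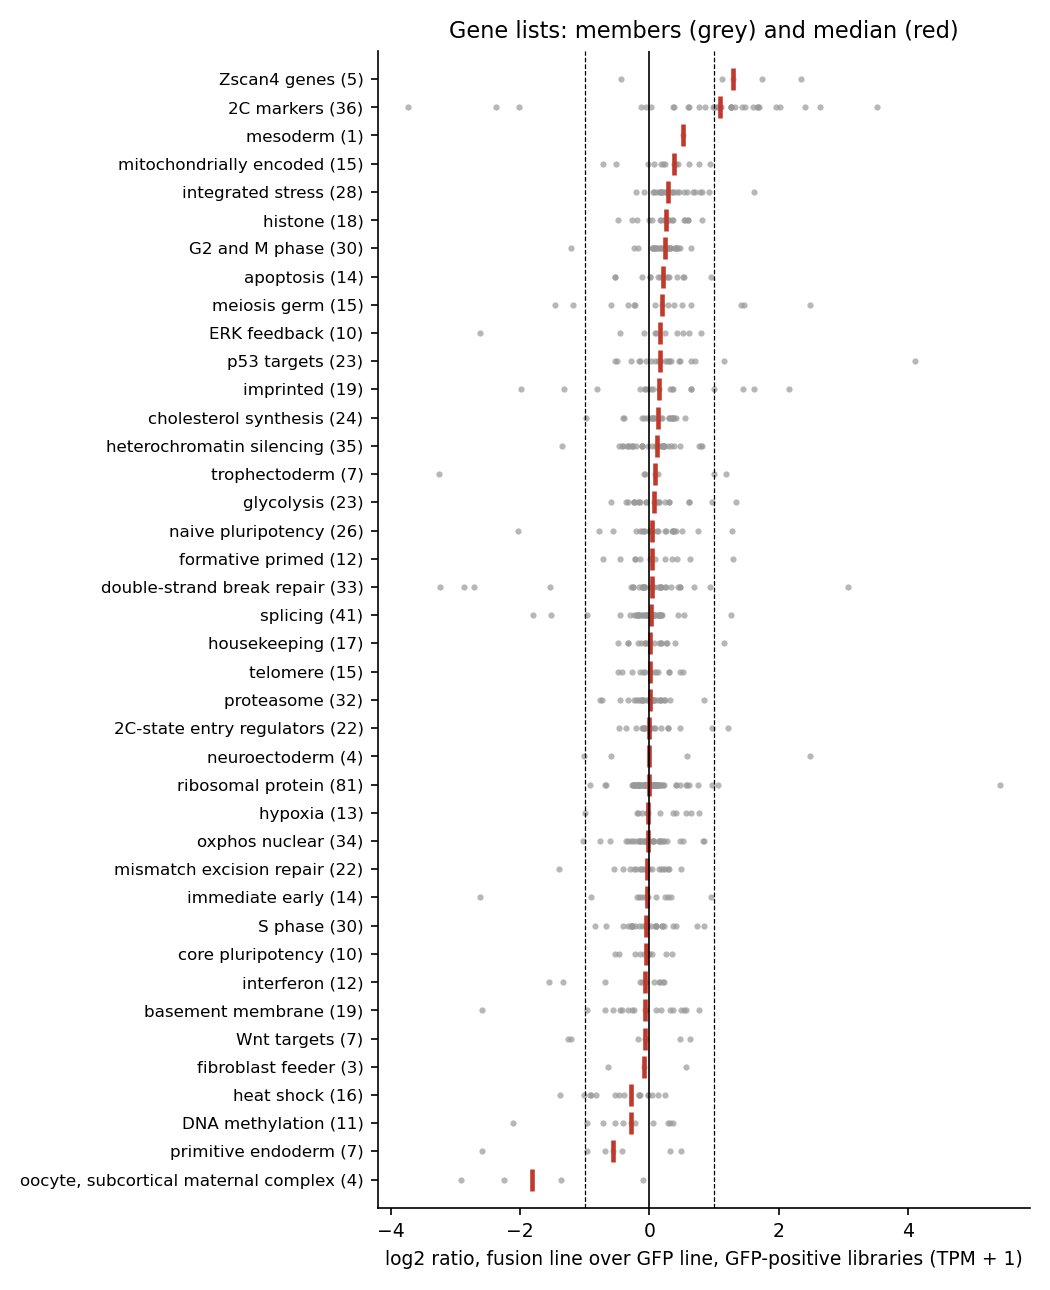
Log2 ratio of fusion line over GFP line in the GFP-positive libraries, on the x axis, for the members of 40 gene lists (grey points) and the median of each list (red bars), with the number of tested members in brackets. The Zscan4 genes (median 1.29) and the 2C markers (1.09) lie above 1, the oocyte and maternal complex genes (-1.81) lie below -1, and all other medians lie between these limits.

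The series title names microsatellite DNA as a target of Zscan4, so promoters of genes that differed were searched for 2 sequence features on both strands, the motif TGCACAC and an unbroken run of at least 6 CA units. The RefSeq table (GRCm38.p6) gives 300 bases for each start, 250 before and 50 after. The motif and the run can overlap where a CA run follows TG. Of promoters of the higher genes, 13 of 381 held the motif (3.41%) and 4 held a CA run (1.05%). These 4 belong to Cnot6l and Git2 only, each counted at more than 1 start. Stk31 was likewise counted more than once among those with the motif. Of promoters of the lower genes, 9 of 324 held the motif (2.78%) and 2 held a CA run (0.617%). Of promoters of genes within 2-fold, 299 of 8249 held the motif (3.62%) and 41 held a CA run (0.497%), and of all 32851 promoters the shares were 4.4% and 1.01%. Promoters were found for 283 of the 635 higher genes and 231 of the 451 lower genes. Neither feature was in the 4 Zscan4 promoters of this table. Gm6803 of the chromosome 12 region was among the higher genes with the motif.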

How the data were processed

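RNA was extracted from sorted cells and enriched for poly(A) RNA, and 1 library was made for each of the 4 populations. Per the submitters' processing notes, CASAVA, HISAT2 2.1.0 and StringTie 1.3.5 were used with GRCm38 (mm10); their options and the annotation release were not stated there. The deposited files hold TPM per transcript, and hold no counts; sequencing depth is therefore unknown. The TPM in a file summed to between 66.6% and 69.1% of 1000000.

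TPM were summed per gene symbol, 1 TPM was added, and log2 ratios were taken among genes at 5 TPM or more in either GFP-positive library. A ratio of 2-fold was counted, with no test, since each population is 1 library. Of 58853 transcripts, 58388 matched GENCODE M21, which gave gene types and coordinates; 2071 of these carry another symbol there, and 82 symbols span more than 1 M21 gene. The genes named are the 10 largest and 10 smallest ratios overall; the 12 largest and 12 smallest among protein-coding genes at 10 TPM or more in either library and above 0 in all 4; up to 4 of the largest absolute ratios in each of 40 lists; and a fixed set with the Zscan4 genes, Pou5f1, Sox2, Nanog, Trp53, Cdkn1a, Mdm2, Dppa2, Dppa4 and Duxf3. Other genes named, among them members of the chromosome stretches, were chosen after their values were seen, as were the bounds of the chromosome 12 region. Members and lists were chosen with earlier results of these data known. Of 970 list entries, 91 had no row. Alternatives were other pseudocounts, filters, scalings and gene sets. The scripts, in Python 3.11.15 with pandas 2.3.3, numpy 2.4.6, Biopython 1.88 and matplotlib 3.10.9, were tested on simulated data. For 1 named gene, the comparison of the 2 fractions is not reported here.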

Additional observations from a re-analysis of the deposited data

Results flagged for a closer look

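For 12 of the genes named by the rule, reported here and above 0 in all 4 libraries, the ratio of fusion line to GFP line was 2-fold or more in one direction in the GFP-positive libraries and 2-fold or more in the other direction in the GFP-negative libraries. With 1 library for each population, the difference between fractions was not tested for any of them. Higher in GFP-positive and lower in GFP-negative cells of the fusion line were Gm6798 (log2 ratios 7.15 and -7.02), Gm11878 (6.98 and -6.83), Gm5250 (6.40 and -6.40), Rps13 (5.42 and -1.65), Brox (2.86 and -1.27), Zscan4d (1.74 and -1.19) and Eda2r (1.15 and -1.10). Lower in GFP-positive and higher in GFP-negative cells were Atp5f1 (-4.34 and 3.97), Garnl3 (-3.20 and 1.79), Gm13154 (-3.09 and 1.53), Ercc4 (-1.40 and 2.24) and Kif22 (-1.21 and 1.23). For Zscan4d the GFP-negative values behind the ratio were 1.50 and 0.0957 TPM, both low. The first 3 are processed pseudogenes.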

How the results depend on the processing

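No paired analysis was possible because each population is 1 library and the labels give no replicate numbers; for the same reason no replicate could be left out. The counts moved with the filter and the pseudocount. The number of genes 2-fold higher, 635, was 348 with a pseudocount of 5 TPM, 1159 with no filter, 231 with a limit of 20 TPM, 360 among genes above 0 in all 4 libraries and 396 among protein-coding genes. The number 2-fold lower, 451, was 291, 946 and 194 under the first 3 of these. These alternatives test fewer or more genes or shrink ratios at low levels. Quantile normalization gave 563 higher and 510 lower, so the share of higher genes among those called went from 58.5% to 52.5%. The median of the oocyte and maternal complex list, -1.81, was -0.77 with no filter and -2.58 with a limit of 20 TPM, over 7 and 2 genes. The medians of the Zscan4 genes (1.11 or more) and the 2C markers (0.98 to 1.27) stayed above 0 under all 9 alternatives, as did those of mitochondrially encoded and integrated stress response genes, and heat-shock genes stayed below 0. Genes that differed the same way in both fractions, 146 in all, numbered 75 with a pseudocount of 5 TPM. No named gene past 2-fold changed direction, but a change of pseudocount cannot reverse a ratio. With a pseudocount of 5 TPM, 17 of 95 were within 2-fold, Dppa3, Tle6, Eda2r, Vldlr and Dnaja1 among them. Depth is unknown, which limits what can be said of genes near 5 TPM.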
